A study of Mus musculus with 22 samples.

Results

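The 10 genes described here encode proteins that build and use the meiotic chromosome axis: Sycp1, Sycp2, Sycp3, Syce1, Syce2, Hormad1, Stag3, Smc1b, Rec8 and Dmc1. They were taken by exact gene symbol, and each was found once among the 34866 gene rows of the culture tables and once among the 23911 rows of the cartilage table. Their messenger RNA was measured in 22 mouse samples, in which Dnmt1, the enzyme that copies DNA methylation onto newly replicated strands, was either intact or deleted. Control mice carried Dnmt1 flox alleles and no Cre was listed for them, and the conditional knockout (cKO) was Prrx1-Cre;Dnmt1 flox/flox. Prrx1-Cre acts in limb bud mesenchyme, the source of limb cartilage, so the deletion reaches the other descendants of that mesenchyme too. Primary chondrocytes from knee articular cartilage of newborn mice gave 3 control and 3 cKO untreated cultures (day 0), and 4 control and 4 cKO cultures treated with BMP2 at 100 ng/µl for 3 days (day 3). BMP2 is a growth factor that drives chondrocyte differentiation. The other samples were cartilage taken at postnatal day 5 and treated with collagenase, with 4 samples per genotype (2 male and 2 female). The culture labels name biological replicates and the cartilage labels number them, but neither says which animals or litters they came from.

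In meiotic prophase, sister chromatids are held in loops along an axis by cohesin complexes that carry the meiosis-specific subunits Rec8, Stag3 and Smc1b. Sycp2, Sycp3 and Hormad1 assemble on that axis, Sycp1 bridges the paired homologues as the transverse filament of the synaptonemal complex, and Syce1 and Syce2 belong to its central element, while Dmc1 is the recombinase that drives strand exchange between homologues. In somatic cells most of these genes are silent, and several germline genes have CpG-containing promoters that are methylated there and bound by repressors such as E2F6 and the PRC1.6 complex.

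Total counts per library were between 41749327 and 51741478 at day 0, between 14434197 and 18918714 at day 3, and between 1100198 and 1888896 in cartilage. Levels are given as CPM (counts scaled to a common library size), with library sizes adjusted by the trimmed mean of M-values. A count of 3 or fewer in a library is treated as the floor, which corresponded to at most 0.0691 CPM at day 0, 0.211 CPM at day 3 and 2.75 CPM in cartilage. Dnmt1 was lower in every cKO sample than in every control sample of all 3 data sets, with 151 ± 6.61 against 27.8 ± 3.09 CPM at day 0 (SD, n = 3 and 3), 70.8 ± 8.63 against 26.6 ± 11.8 CPM at day 3 (n = 4 and 4) and 42.5 ± 6.18 against 13.2 ± 1.09 CPM in cartilage (n = 4 and 4). Day 3 cKO replicate 4 stood apart from its group: its counts differed from those of the other 3 by a chi-square of 123.9 to 138.4 per degree of freedom, against 7.424 to 10.88 among those 3. Its summed chondrocyte markers were at 1774 CPM against 12740 to 18040 CPM in the other 3, so the day 3 calls of the members and lists are given with and without it. In cartilage the controls were all listed in pool 1, and pool 2 held only cKO libraries, so genotype and pool cannot be told apart there.

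The RNA of cell type markers also differed with genotype. The 8 chondrocyte markers summed to 140300 to 148100 CPM in control and 51540 to 62440 CPM in cKO cultures at day 0, to 99050 to 119700 and 1774 to 18040 CPM at day 3, and to 67100 to 100100 and 32200 to 61380 CPM in cartilage. All 8 were called lower at day 0 and at day 3, against 31.6% and 22.6% of all genes. Without day 3 cKO replicate 4 the day 3 count was also 8, against 26.4%. In a fit over all 14 cultures 5 were called lower at day 0, against 20.9%, and 8 at day 3, against 27.5%. Acan, Col2a1 and Sox9 were not called at day 0 in that fit. In cartilage 2 of the 8 were called lower, against 3.04%, and 6 were not called, with a median log2 fold change of -0.44. The 7 skeletal muscle markers summed to 4.78 to 5.37 CPM in control and 22.8 to 29.6 CPM in cKO cultures at day 0 and to 0.868 to 1.23 and 104.2 to 1520 CPM at day 3, with Pax7 at or under the floor throughout the cultures. The value of 104.2 CPM was that of day 3 cKO replicate 4. In cartilage the 4 muscle markers in the table summed to 0 to 1.54 CPM in control and 2.68 to 19.2 CPM in cKO libraries. All 4 were at or under the floor in every control library, and Myh3 and Myog in every cKO library too. None passed the filter on low counts. The 12 germ cell markers summed to 4.24 to 5.24 CPM in control and 9.16 to 10.7 CPM in cKO cultures at day 0, and to 1.95 to 3.47 and 4.96 to 8.91 CPM at day 3. Of these, Pou5f1, Dppa3, Nanos2 and Tnp1 were at or under the floor in every cKO culture of both days. Ddx4, an RNA helicase of the germ line, was higher in cKO by a log2 fold change of 2.78 ± 0.178 (SE) at day 0 and 2.94 ± 0.488 at day 3, and Kit by 1.74 ± 0.171 and 2.53 ± 0.56. Without day 3 cKO replicate 4 these day 3 values were 2.97 ± 0.489 and 2.45 ± 0.559. Of the 4 germ cell markers tested at day 0, 2 were called higher and 0 lower, against 33.0% and 31.6% of all genes. Zbtb16 (-0.27 ± 0.2) and Acrv1 (0.34 ± 0.361) were not called. At day 3, 2 of 3 were called higher, against 25.5%. Without cKO replicate 4 this was also 2 of 3, against 28.8%, and Zbtb16 was not called (-0.52 ± 0.524). In cartilage the 6 germ cell markers in the table summed to 5.12 to 12.8 CPM in control and 5.17 to 10.9 CPM in cKO, and none passed the filter on low counts. Proliferation markers summed to 911 to 1009 CPM in control and 1189 to 1272 CPM in cKO cultures at day 0, and their ranges overlapped at day 3 and in cartilage. At day 0 the summed haematopoietic (1.87 to 2.72 against 3.51 to 4.11 CPM), endothelial (1.08 to 1.32 against 3.13 to 3.67 CPM) and adipocyte markers (0.864 to 1.1 against 2.26 to 4.28 CPM) were higher in cKO, and fibroblast or tendon markers lower (3053 to 4558 against 2246 to 2529 CPM). Of the 6 fibroblast or tendon markers tested at day 0, 4 were called lower, against 31.6% of all genes. Scx (log2 fold change 1.15 ± 0.0757) was the 1 called higher, against 33.0%. In the fit over all 14 cultures 2 were called lower and 1, again Scx, higher at day 0, against 20.9% and 21.1%. At day 3 the summed adipocyte markers (1.39 to 2.88 against 27.34 to 42.02 CPM), endothelial markers (0.310 to 1.12 against 1.41 to 1.71 CPM) and fibroblast or tendon markers (6830 to 8734 against 9404 to 10490 CPM) were higher in cKO, and the haematopoietic markers overlapped (4.50 to 7.08 against 6.56 to 14.6 CPM). Of the 5 fibroblast or tendon markers tested at day 3, 2 were called higher and 0 lower, against 25.5% and 22.6% of all genes. Their median log2 fold change was -0.21. Without cKO replicate 4 the calls were again 2 and 0 of 5, against 28.8% and 26.4%, with a median of 0.08. In cartilage the haematopoietic markers summed to 159.9 to 777.4 CPM in control and 20.99 to 346.1 CPM in cKO, with the globin genes Hba-a1 (log2 fold change -1.90 ± 0.43, adjusted p = 0.0148) and Hbb-bs (-1.92 ± 0.465, adjusted p = 0.0231) called lower. Whether the cell makeup changed, and what part that had in the results below, was not tested. In bulk samples such as these, fewer cells of a type and less RNA per cell cannot be told apart.

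The promoters of the members were read from the RefSeq table for GRCm38.p6 as windows of 300 bases, from 250 before to 50 after the start site, and all 10 members had at least 1 window. They held 10 (Sycp2) to 33 (the second window of Syce2) CpG dinucleotides, against a median of 7.0 and an upper quartile of 20.0 over the 32841 windows in the table. An exact match to TCCCGC, the core of the E2F6 recognition sequence, on either strand was present in the windows of 8 of the 10 members and in 20.0% of all windows. It was present in 40.3% of the 14280 windows with at least 10 CpG dinucleotides. An exact E-box, CACGTG, was present in windows of 5 members (Sycp1, Sycp3, Syce2, Hormad1 and Stag3), in 7.2% of all windows and in 10.9% of those with at least 10 CpG dinucleotides. The matches to the 2 motifs did not overlap in any member window. Sycp2 and Syce1 had neither match. A match is a description of letters only, and neither DNA methylation nor factor binding was measured in the data used here.

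The 5 windows below show promoters of members that were at 0 in every control culture (Hormad1 and Sycp1), of a member near 0 in controls that has no motif match (Syce1), of the cohesin subunit with the highest cKO level per length at day 0 (Stag3) and of the member that did not differ at day 0 (Dmc1). They run 5′ to 3′ on the gene's own strand, and capitals mark TCCCGC or its reverse complement and CACGTG. Their positions on GRCm38.p6 are chr3:95559427-95559726 (Hormad1, plus strand), chr3:102936051-102936350 (Sycp1, minus strand), chr7:140787805-140788104 (Syce1, minus strand), chr5:138280259-138280558 (Stag3, plus strand) and chr15:79605060-79605359 (Dmc1, minus strand).
Hormad1: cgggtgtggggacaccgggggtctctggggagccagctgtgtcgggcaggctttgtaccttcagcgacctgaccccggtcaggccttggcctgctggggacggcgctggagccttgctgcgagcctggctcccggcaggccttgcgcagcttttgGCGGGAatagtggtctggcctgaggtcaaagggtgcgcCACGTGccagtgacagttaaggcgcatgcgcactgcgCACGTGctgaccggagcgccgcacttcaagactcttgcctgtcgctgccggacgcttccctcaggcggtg
Sycp1: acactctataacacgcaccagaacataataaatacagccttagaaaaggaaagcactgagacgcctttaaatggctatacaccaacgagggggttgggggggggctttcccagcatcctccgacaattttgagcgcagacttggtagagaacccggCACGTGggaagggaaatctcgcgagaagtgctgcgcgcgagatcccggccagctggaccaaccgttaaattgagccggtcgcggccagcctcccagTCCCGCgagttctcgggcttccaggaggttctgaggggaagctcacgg
Syce1: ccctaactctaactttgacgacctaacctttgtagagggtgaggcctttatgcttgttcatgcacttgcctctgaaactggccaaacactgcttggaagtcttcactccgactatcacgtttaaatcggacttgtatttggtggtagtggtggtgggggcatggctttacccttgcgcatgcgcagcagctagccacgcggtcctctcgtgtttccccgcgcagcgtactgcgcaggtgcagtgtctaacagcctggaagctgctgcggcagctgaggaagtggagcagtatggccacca
Stag3: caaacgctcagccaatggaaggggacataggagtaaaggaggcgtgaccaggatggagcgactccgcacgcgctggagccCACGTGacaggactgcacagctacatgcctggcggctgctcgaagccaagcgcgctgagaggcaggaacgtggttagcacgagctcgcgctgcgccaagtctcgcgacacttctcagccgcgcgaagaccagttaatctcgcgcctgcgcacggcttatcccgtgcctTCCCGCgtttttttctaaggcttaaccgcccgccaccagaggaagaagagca
Dmc1: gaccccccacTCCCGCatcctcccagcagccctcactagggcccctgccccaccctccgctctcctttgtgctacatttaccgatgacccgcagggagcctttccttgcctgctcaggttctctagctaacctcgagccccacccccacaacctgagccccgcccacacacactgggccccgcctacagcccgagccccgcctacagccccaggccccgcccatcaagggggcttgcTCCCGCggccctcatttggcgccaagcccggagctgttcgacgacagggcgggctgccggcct

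**Figure D1:**
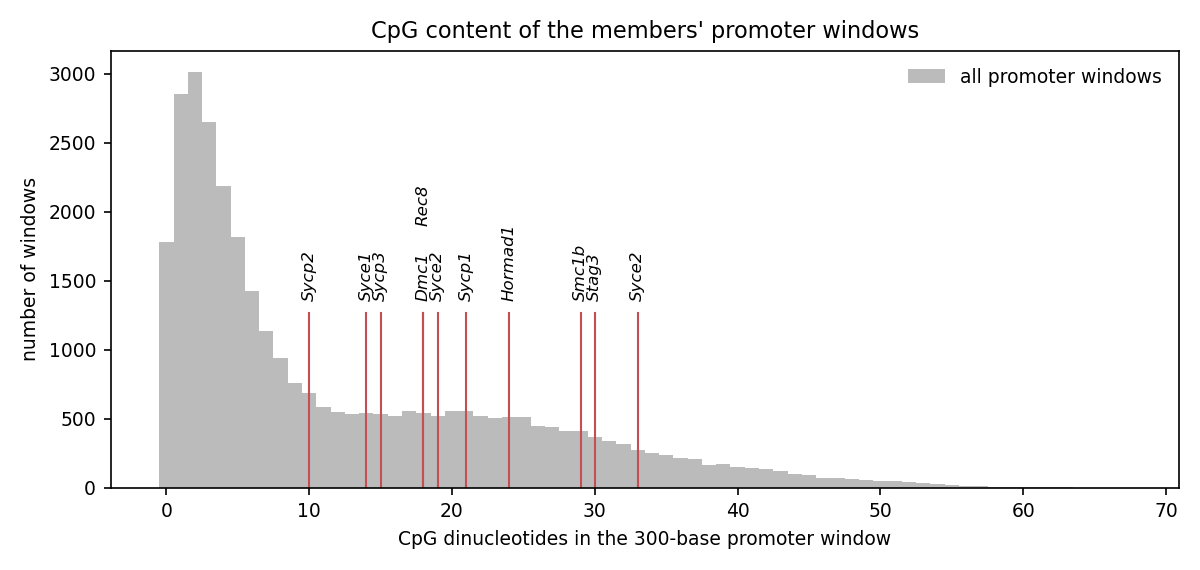
Number of CpG dinucleotides in each 300-base promoter window (x axis) against the number of RefSeq windows with that content (y axis, grey bars), with a red line for each member window. All member windows lie at 10 or more CpG dinucleotides, above the median of 7.0.

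At day 0, 9 of the 10 members were called higher in cKO cultures (adjusted p under 0.05), against 33.0% of the 15530 genes tested that were called higher and 31.6% called lower. The exception was Dmc1. In those same 9 members every cKO culture lay above every control culture, against 26.8% of the 24597 genes with at least 1 count. Of the 10 members tested, 6 (Sycp1, Sycp2, Sycp3, Syce1, Hormad1 and Rec8) reached the level the filter asks for, 0.207 CPM, in cKO cultures and in no control culture, so that they had to differ in order to be tested. In a fit over all 14 cultures 8 members were called higher, against 21.1% of 14909 genes called higher and 20.9% lower, and Sycp3 was not tested. The 4 members that passed in both genotypes were Syce2, Stag3 and Smc1b, which were called higher, and Dmc1, which was not.

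Hormad1 (chromosome 3, 95559677 to 95587671, plus strand, 16 exon blocks), the HORMA-domain protein of the unsynapsed axis, had 0 counts in all 3 control cultures and 142, 102 and 152 counts in the 3 cKO cultures at day 0. These are 3.27, 2.24 and 2.82 CPM, at least 41.8-fold higher than the floor of the control libraries (adjusted p = 3.5e-06). Sycp2 (chromosome 2, 178345293 to 178407685, minus strand, 45 exon blocks), an axial element protein, had 3, 0 and 1 counts in control and 116, 95 and 98 in cKO cultures. Every control library of both genes was at or under the floor, and the groups did not overlap. The ratio of cKO to control totals for Sycp2 was 76.9, with an exact 95% counting interval of 29.7 to 284, and its fitted log2 fold change was 6.15 ± 0.45 (adjusted p = 3.3e-06). That fold change ran from 5.58 to 7.37 when 1 library was left out, highest without control replicate 1, which held 3 of its 4 control counts.

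Sycp3 (chromosome 10, 88459569 to 88473236, plus strand, 8 exon blocks), the partner of Sycp2 in the axial element, was far closer between genotypes. Its counts were 1, 8 and 5 in control and 22, 18 and 14 in cKO cultures, and its log2 fold change was 1.93 ± 0.53 (adjusted p = 0.0105). Of its 1264 exonic bases, 660 lie over exons of Chpt1, a phospholipid enzyme gene on the opposite strand. Whether the counting used strand is not given in the sources used here, so reads of the 2 genes cannot be told apart over that stretch. Chpt1 went the other way, from 29.7 ± 0.487 CPM in control to 19.3 ± 0.465 CPM in cKO (n = 3 and 3, log2 fold change -0.62 ± 0.04, adjusted p = 2.6e-06).

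Sycp1 (chromosome 3, 102818499 to 102936100, minus strand, 34 exon blocks), the transverse filament, had 0 counts in the 3 control cultures and 40, 23 and 38 counts in the cKO cultures, or 0.921, 0.506 and 0.705 CPM. This is at least 10.7-fold higher (adjusted p = 9.0e-05). Syce1 (chromosome 7, 140777229 to 140787852, minus strand, 13 exon blocks), of the central element, had 0, 0 and 1 counts in control and 93, 86 and 84 in cKO cultures. The ratio of totals was 262, with an exact 95% counting interval of 46.6 to 10380, and the adjusted p was 1.5e-06. Its fitted log2 fold change of 7.59 became 9.48 without control replicate 3, which held the single control count. Both genes went from the floor to a level read in each cKO culture.

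Syce2 (chromosome 8, 84872111 to 84888221, plus strand, 5 exon blocks), also of the central element, was already present in control cultures. Its counts of 94, 101 and 114 in control and 196, 168 and 249 in cKO cultures correspond to 2.18 ± 0.299 and 4.28 ± 0.505 CPM (n = 3 and 3). The groups did not overlap, and the log2 fold change was 0.97 ± 0.14 (adjusted p = 2.7e-04), the smallest among the 9 members called.

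Among the cohesin subunits, Stag3 (chromosome 5, 138280240 to 138312393, plus strand, 32 exon blocks) had 25, 28 and 18 counts in control and 314, 356 and 384 in cKO cultures, or 0.497 ± 0.0882 and 7.40 ± 0.383 CPM (n = 3 and 3). The log2 fold change was 3.88 ± 0.14 (adjusted p = 5.5e-08). Smc1b (chromosome 15, 85064689 to 85131964, minus strand, 25 exon blocks) had 43, 24 and 29 counts in control and 159, 140 and 103 in cKO cultures (log2 fold change 2.08 ± 0.30, adjusted p = 2.2e-04). Rec8 (chromosome 14, 55618037 to 55625395, plus strand, 16 exon blocks), the kleisin that closes the meiotic cohesin ring, had 6, 0 and 5 counts in control and 32, 21 and 37 in cKO cultures (log2 fold change 2.98 ± 0.56, adjusted p = 0.0013, and 2.38 without control replicate 2). All 3 subunits rose without overlap of the groups.

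Dmc1 (chromosome 15, 79561497 to 79605109, minus strand, 14 exon blocks), the meiotic recombinase, had 43, 38 and 37 counts in control and 35, 39 and 38 in cKO cultures. The 2 groups overlapped at 0.831 ± 0.066 and 0.79 ± 0.0779 CPM (n = 3 and 3), with a log2 fold change of -0.08 ± 0.20 (adjusted p = 0.75). The exact 95% counting interval of its ratio of totals ran from 0.723 to 1.23.

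**Figure D2:**
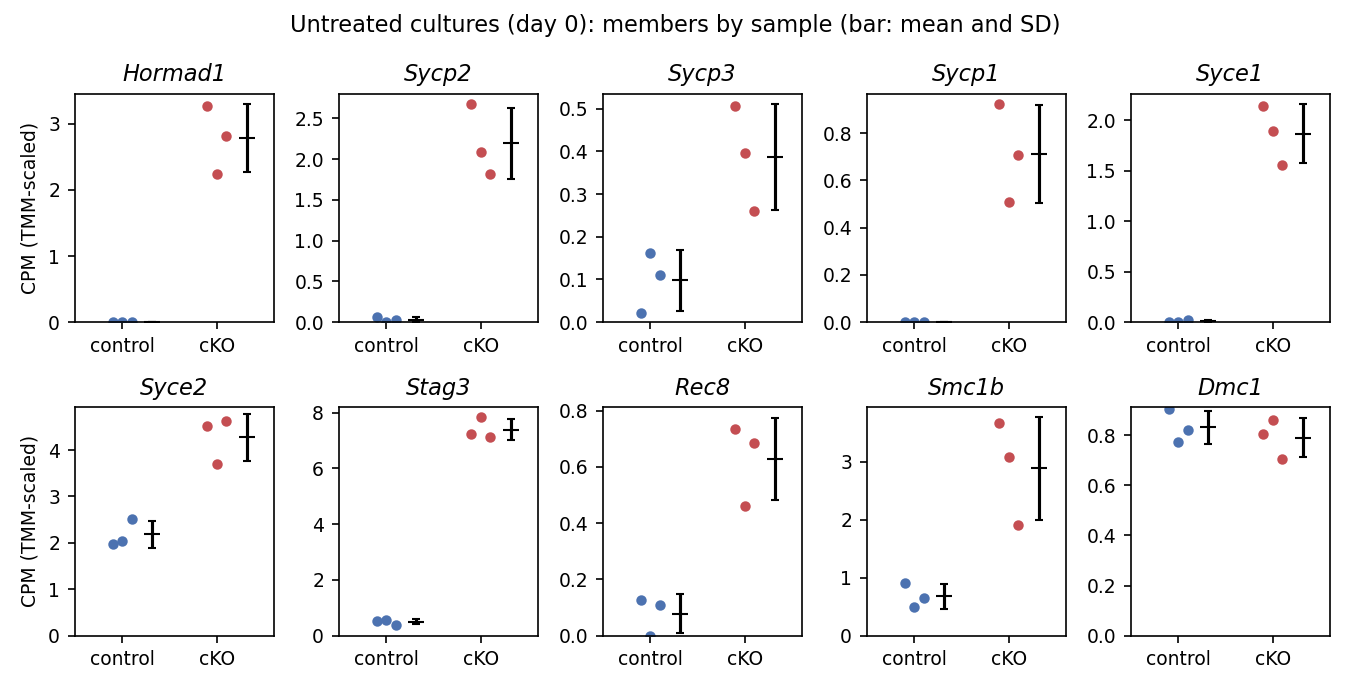
Scaled CPM (y axis, starting at 0, a separate scale for each gene) of the 10 members in each untreated culture, with control in blue, cKO in red, and black bars for the mean and SD (n = 3 and 3). Every cKO point lies above every control point in 9 of the 10 panels, and only the Dmc1 points overlap.

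At day 3, 4 of the 10 members were called higher in cKO cultures, against 25.5% of the 13924 genes tested that were called higher and 22.6% called lower. Of the 6 members tested, Sycp2, Syce1 and Hormad1 reached the filter's level of 0.592 CPM only in cKO cultures and had to differ to be tested. Sycp1, Sycp3, Rec8 and Dmc1 did not pass it. Over all 10 members, 6 (Sycp1, Sycp2, Sycp3, Syce1, Hormad1 and Stag3) had every cKO culture above every control culture, against 18.3% of the 22836 genes with at least 1 count. Without cKO replicate 4 that held for 9 members, all but Syce2, against 22.6% of 22417 genes. Without it 8 members were tested and 7 were called higher, with Sycp1, Smc1b and Rec8 added, against 28.8% of 14159 genes called higher and 26.4% lower. Sycp1 and Rec8 reached the filter's level in 3 cKO libraries and 0 control libraries there, so they too had to differ to be tested. A fit over all 14 cultures also called those 7, against 30.3% of genes called higher and 27.5% lower.

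On the axis, Hormad1 had 0 counts in all 4 control cultures and 25, 38, 29 and 36 in the cKO cultures, at least 8.48-fold higher (adjusted p = 2.3e-04, and 1.3e-04 without replicate 4). Sycp2 had 0, 1, 3 and 0 counts in control and 125, 149, 93 and 87 in cKO cultures. The ratio of its totals was 99.7 (exact 95% counting interval 38.7 to 368), and its log2 fold change was 6.48 ± 0.54 (adjusted p = 4.6e-05) and 6.54 ± 0.49 without replicate 4. Leaving out 1 library gave 6.12 to 7.78, highest without control replicate 3. Sycp3 had 3, 3, 4 and 3 counts in control and 18, 7, 8 and 6 in cKO cultures. It was not tested, and its ratio of totals was 2.63 (exact 95% counting interval 1.38 to 5.38) and 2.89 (1.48 to 5.97) without replicate 4, with cKO replicate 1 far above the other 3.

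In the synaptonemal complex, Syce1 had 0 counts in all 4 control cultures and 67, 100, 87 and 106 in the cKO cultures, or 3.90 to 6.49 CPM. This is at least 23.9-fold higher (adjusted p = 8.9e-05, and 2.1e-05 without replicate 4). Sycp1 had 0 counts in all 4 control cultures and 11, 15, 11 and 6 in cKO cultures, at least 2.80-fold higher. It failed the filter in the full set and was called without replicate 4 (adjusted p = 7.2e-04) and without any filter (adjusted p = 0.0017). Syce2 had 46, 61, 48 and 48 counts in control and 48, 67, 63 and 33 in cKO cultures, and the groups overlapped. Its log2 fold change was -0.14 ± 0.20 (adjusted p = 0.58) and -0.01 ± 0.17 without replicate 4.

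Of the cohesin subunits, Stag3 had 19, 23, 18 and 12 counts in control and 150, 159, 158 and 64 in cKO cultures, with the lowest cKO value in replicate 4. Its log2 fold change was 2.68 ± 0.30 (adjusted p = 2.1e-04) and 2.87 ± 0.18 without that replicate. Smc1b had 17, 15, 5 and 17 counts in control and 43, 72, 41 and 7 in cKO cultures, so that replicate 4 lay inside the control range. The log2 fold change of Smc1b was 1.34 ± 0.60 (adjusted p = 0.097) with all libraries and 1.68 ± 0.38 (adjusted p = 0.0049) without replicate 4. Rec8 had 0, 6, 1 and 4 counts in control and 10, 20, 29 and 4 in cKO cultures. It did not pass the filter with all libraries. With no filter edgeR did not call it (log2 fold change 2.26 ± 0.783, adjusted p = 0.0526), DESeq2 called it (2.33, adjusted p = 0.0248), and without replicate 4 edgeR called it (2.55 ± 0.65, adjusted p = 0.0087). Dmc1 stayed low, with 2, 3, 5 and 4 counts in control and 6, 10, 9 and 3 in cKO cultures, and its ratio of totals of 1.76 had an exact 95% counting interval of 0.895 to 3.61. Without replicate 4 that ratio was 2.03, with an interval of 1.02 to 4.22 that excludes 1 by counting error alone. These intervals leave out the spread between cultures. With all libraries and no filter edgeR did not call Dmc1 (log2 fold change 0.76 ± 0.51, adjusted p = 0.30).

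**Figure D3:**
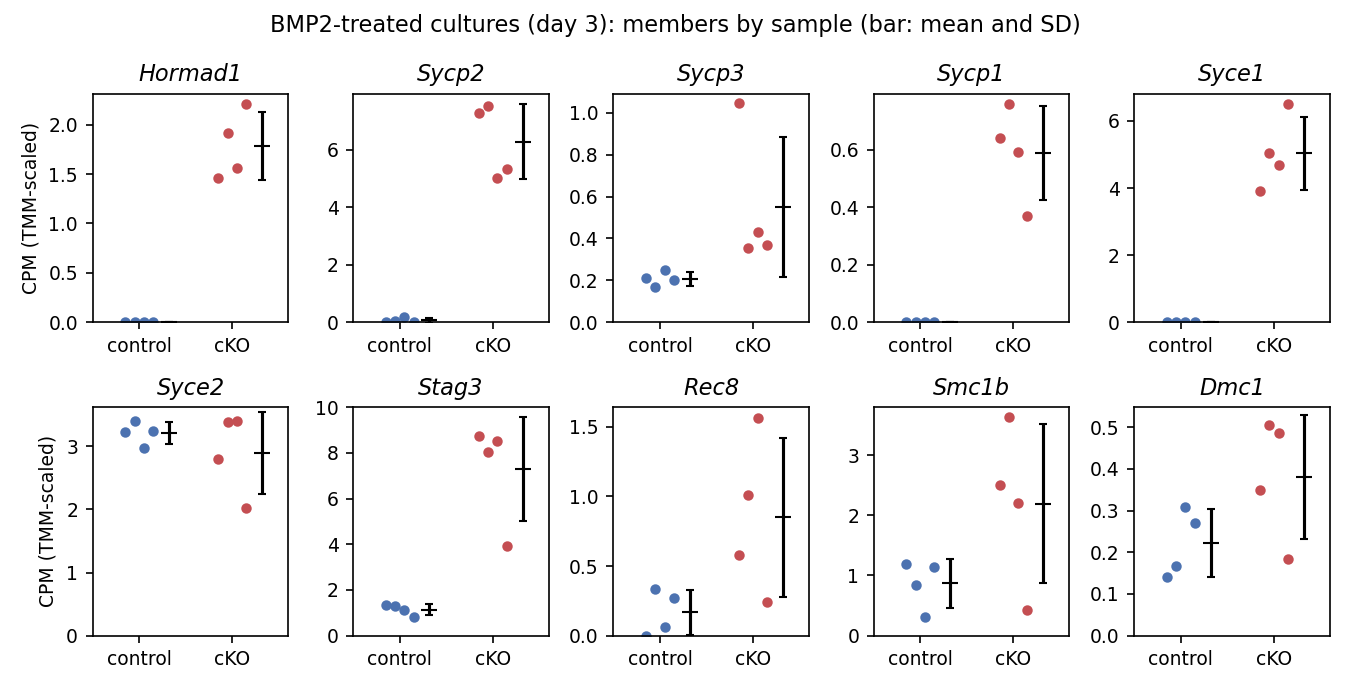
Scaled CPM (y axis, starting at 0, a separate scale for each gene) of the 10 members in each BMP2-treated culture, with control in blue, cKO in red, points in replicate order from left to right, and black bars for the mean and SD (n = 4 and 4). The groups are apart in 6 panels, and the fourth cKO point is the lowest of its group for Sycp1, Syce2, Stag3, Smc1b, Rec8 and Dmc1.

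**Figure D4:**
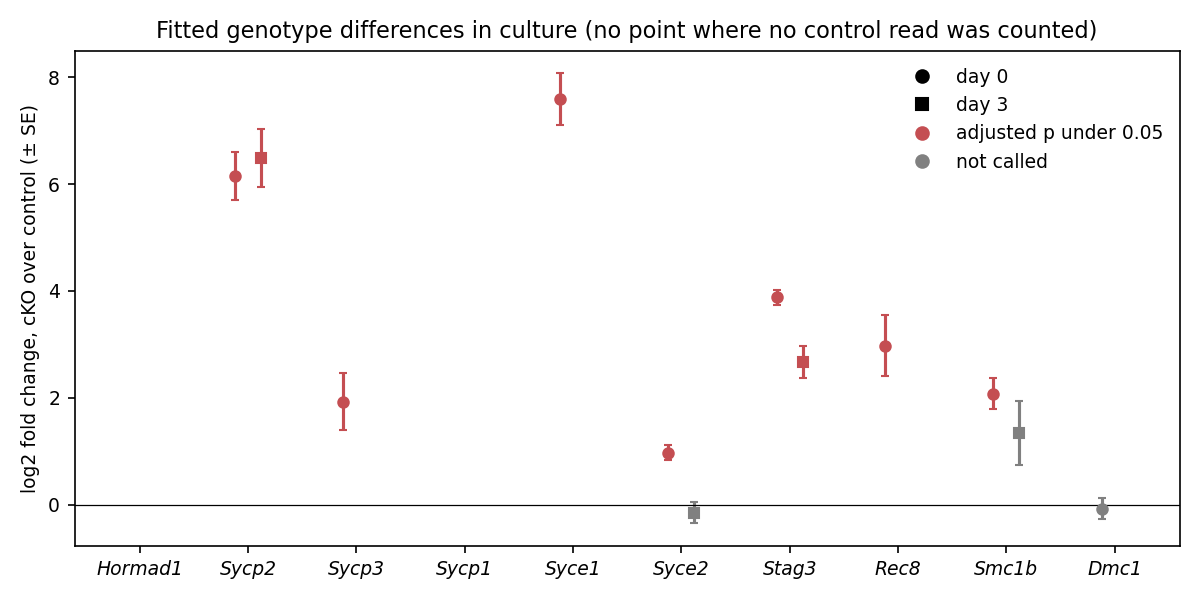
Fitted log2 fold change of cKO over control with its SE (y axis) for each member tested (x axis), at day 0 (circles) and day 3 (squares), red where the adjusted p was under 0.05 and grey otherwise. Members with no control read on a day have no point for it, because the fitted value then depends on the prior count. Values run from 7.59 for Syce1 at day 0 to -0.14 for Syce2 at day 3.

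Whether the genotype difference itself changed with treatment was tested as an interaction over the 14 cultures. Of the 9 members tested, 2 were called, both with a smaller difference at day 3, against 6.89% of the 14909 genes tested that were called in that direction. Syce2 had an interaction of -1.13 ± 0.26 (log2, adjusted p = 0.0117), and -0.99 ± 0.21 (adjusted p = 0.0032) without day 3 cKO replicate 4. Stag3 had -1.22 ± 0.38 (adjusted p = 0.0466), and -1.0 ± 0.23 (adjusted p = 0.0055) without that replicate. Its call was lost in 10 of the 14 fits that left out 1 culture, where the adjusted p reached 0.121. For Sycp1 and Hormad1 the interaction could not be estimated, since no control culture of either day had a count.

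Levels also moved with time within a genotype, in comparisons that share the cKO or control cultures with those above. In cKO cultures, Sycp2 (log2 change 1.41 ± 0.36, adjusted p = 0.0045) and Syce1 (1.31 ± 0.28, adjusted p = 0.0021) were higher at day 3 than at day 0, against 32.4% of genes called higher. Syce2 (-0.67 ± 0.18, adjusted p = 0.0061), Hormad1 (-0.75 ± 0.23, adjusted p = 0.023) and Dmc1 (-1.14 ± 0.30, adjusted p = 0.005) were lower, against 29.8% called lower. All 5 calls held without replicate 4. In control cultures, Stag3 was higher at day 3 (1.09 ± 0.30, adjusted p = 0.0081), against 28.1% of genes called higher, and Dmc1 was lower (-1.98 ± 0.33, adjusted p = 2.3e-04), against 28.8% called lower. Syce2 changed by 0.46 ± 0.19 in control cultures (adjusted p = 0.052), with an adjusted p of 0.0121 when day 3 cKO replicate 4 was left out of the shared fit. Day 0 and day 3 differ in treatment, time and sequencing depth together, and these cannot be told apart.

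Divided by exonic length, the order of the levels was different in the 2 genotypes. In cKO cultures at day 0 the order was Syce2 (2.17 ± 0.257 CPM per kb), Hormad1 (1.61 ± 0.297), Stag3 (1.29 ± 0.0668), Syce1 (1.28 ± 0.2), Smc1b (0.713 ± 0.22), Sycp2 (0.367 ± 0.073), Dmc1 (0.324 ± 0.032), Sycp3 (0.306 ± 0.0978), Rec8 (0.214 ± 0.0498) and Sycp1 (0.2 ± 0.0583), each with the SD of 3 cultures. Neighbours overlapped in range except Syce1 over Smc1b and Smc1b over Sycp2. In control cultures at day 0 Syce2 was highest at 1.11 ± 0.152 CPM per kb and Dmc1 next at 0.341 ± 0.0271, with Smc1b at 0.167 ± 0.0518 and the others lower. At day 3 Syce1 stood at the top of the cKO cultures at 3.45 ± 0.743 CPM per kb (n = 4), its lowest culture at 2.67 above the highest of Syce2 at 1.73, and Dmc1 had the lowest mean at 0.156 ± 0.0609. The range of Dmc1, 0.0755 to 0.207, overlapped that of Sycp1, 0.103 to 0.213 (mean 0.166 ± 0.0459).

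In cartilage, none of the 10 members passed the filter on low counts, so none was tested in the chosen fit, in which 3.15% of 8793 genes were called higher and 3.04% lower. Counts were low throughout: 7 members were at or under the floor in every control library, and 3 of these (Sycp3, Syce1 and Rec8) were so in every cKO library too. In 5 members (Sycp1, Sycp2, Syce1, Hormad1 and Smc1b) every cKO library lay above every control library, against 4.40% of the 23911 genes in the table. With no filter on low counts the same 5 were called higher, against 2.18% of genes. On the deposited table of estimated counts with no filter, an alternative chosen after seeing the data, 4 of them were called, without Syce1, against 3.54% of 20241 genes. On that table Dnmt1 was at 52.9 ± 7.6 CPM in control and 30.6 ± 3.3 CPM in cKO (n = 4 and 4), a ratio of totals of 0.593. DESeq2 called Sycp1, Sycp2 and Smc1b, and the share of all genes it called is not given here.

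Smc1b showed the widest separation among the cohesin subunits. It had 0, 0, 0 and 2 counts in the control libraries and 8, 7, 14 and 8 in the cKO libraries, a ratio of totals of 22.2 with an exact 95% counting interval of 5.72 to 190 (unfiltered adjusted p = 3.4e-08). Sycp2 had 1, 1, 0 and 2 counts in control and 9, 10, 8 and 7 in cKO libraries, a ratio of 10.2 (interval 3.64 to 39.5, unfiltered adjusted p = 1.0e-05), and on the estimated counts, with 1 control count in all, a ratio of 51.0 (interval 8.66 to 2061). Sycp1 had 0 counts in all control libraries and 5, 5, 7 and 4 in cKO libraries, at least 1.66-fold higher (unfiltered adjusted p = 2.1e-05). Syce1 had 0 counts in control and 3, 2, 3 and 3 in cKO libraries, and Hormad1 had 0 counts in control and 2, 3, 1 and 4 in cKO libraries. These counts are at the floor in 4 and 3 of the 4 cKO libraries, so no fold is given for Syce1 and Hormad1, and their unfiltered adjusted p of 0.024 and 0.043 became 0.16 and 0.22 with DESeq2.

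The remaining members overlapped between the genotypes in cartilage. Syce2 had 5, 7, 4 and 12 counts in control and 8, 7, 10 and 22 in cKO libraries, and Stag3 had 8, 6, 5 and 12 in control and 7, 7, 21 and 12 in cKO libraries. Sycp3 had 0, 0, 3 and 2 counts against 2, 1, 2 and 2, and Rec8 had 0 in control against 1, 1, 0 and 0, both at the floor. Dmc1 had 10, 5, 9 and 8 counts in control and 2, 4, 7 and 3 in cKO libraries, a ratio of 0.6 with an exact 95% counting interval of 0.307 to 1.13. On the estimated counts that ratio was 0.533 with an interval of 0.288 to 0.949, which excludes 1 by counting error alone, and the groups still overlapped. The interval leaves out the spread between libraries. With no filter edgeR did not call Dmc1 on the estimated counts (log2 fold change -0.94 ± 0.55, adjusted p = 0.41). Replicates 1 and 2 are male and 3 and 4 female. The filter uses genotype only, so leaving sex out of the fit could not change which members passed it.

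**Figure D5:**
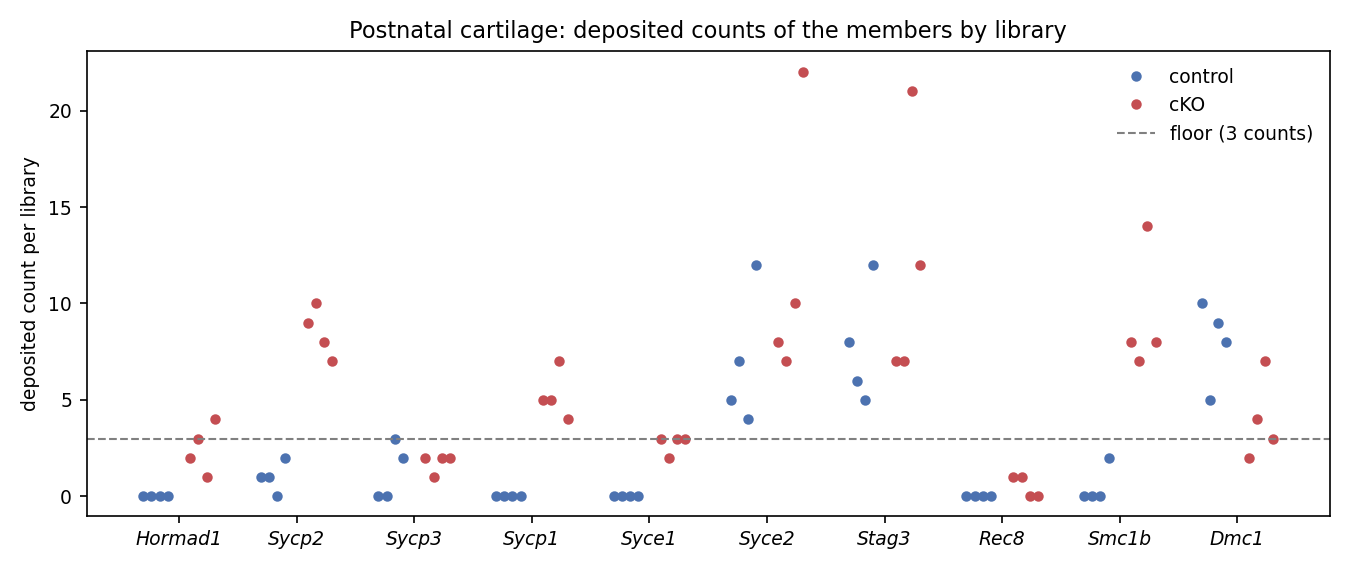
Deposited counts (y axis) of the 10 members (x axis) in each cartilage library, control in blue and cKO in red, points in replicate order from left to right, with the floor of 3 counts as a dashed line. Smc1b, Sycp2 and Sycp1 lie above the line in all 4 cKO libraries and on or below it in all 4 control libraries, while Sycp3, Syce1 and Rec8 never exceed it.

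Other genes of meiotic prophase were followed as a list of 44, of which 42 were matched. At day 0, 26 were tested, of which 15 were called higher and 6 lower, against 33.0% and 31.6% of all genes tested. In the fit over all 14 cultures these were 13 higher and 3 lower, against 21.1% and 20.9%. Of the 26, AI481877, Tex11 and Tex12 reached the filter's level in cKO cultures alone and had to differ to be tested. Tex11, a regulator of crossovers on the axis, rose by 7.02 ± 0.221 (log2). Tex12, a central element protein, had 2 control counts in all and a ratio of totals of 104.5 (exact 95% counting interval 28.6 to 868.6). Mnd1, the partner of Psmc3ip in stimulating Dmc1, rose from 1.08 to 39.4 CPM (5.18 ± 0.0598). Mei4, needed for meiotic double-strand breaks, fell by 1.01 on the log2 scale and Msh5, of the crossover pathway, by 0.80. At day 3, 23 were tested, with 9 called higher and 5 lower against 25.5% and 22.6% of all genes, and 10 higher and 4 lower of 23 without cKO replicate 4, against 28.8% and 26.4%. Of the 23 tested with all libraries, 6 (AI481877, Ccdc36, Ccnb1ip1, Rec114, Tex11 and Tex12) were tested only through cKO cultures. There Tex12 was at 0 in all control cultures and at least 13.2-fold higher in cKO, and Mnd1 rose by 5.42 ± 0.316. In cartilage 4 were tested, of which Mnd1 and Tex15 were tested only through cKO libraries. Of those 4, 3 were called higher, against 3.15% of all genes. They were Mnd1 (5.60 ± 0.245), Tex15 (3.32 ± 0.214) and 4930447C04Rik (1.79 ± 0.292), the last a central element gene also called Six6os1.

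The somatic counterparts of the members were a list of 12 genes that act mainly in mitotic cohesion. At day 0, 6 of 11 tested were called higher and 1 lower, against 33.0% and 31.6% of all genes, with a median log2 fold change of 0.12. In the fit over all 14 cultures 1 was called higher and 0 lower, against 21.1% and 20.9%. Cdca5, which stabilises cohesin on chromosomes, was called higher at 0.52 ± 0.0643 and was not called in the fit over all 14 cultures (adjusted p = 0.133). At day 3, 1 of 11 was called, in the lower direction, against 22.6% of all genes called lower and 25.5% higher. This was Pds5b, a cohesin regulator, at -0.46 ± 0.132 and -0.37 ± 0.105 (adjusted p = 0.0145) without cKO replicate 4. Without that replicate 2 of 11 were called higher and 2 lower, against 28.8% and 26.4%. In cartilage edgeR called 0 of the 10 tested, against 3.15% of all genes called higher and 3.04% lower. Of those 10, 0 had an unadjusted p under 0.05, and DESeq2 called 0 of 12.

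The regulators of meiotic entry were a list of 11. At day 0 all 8 tested were called higher, against 33.0% of all genes, and Sohlh2 and Stra8 reached the filter's level in cKO cultures alone, so they had to differ to be tested. Sohlh2, a germline transcription factor, had 3 control counts in all and 59.2 CPM in cKO cultures, a ratio of totals of 2800 (exact 95% counting interval 957.7 to 13580). Meioc was higher by 4.25 ± 0.25 (log2) and Stra8, the retinoic acid-induced gene of meiotic entry, by 3.58 ± 0.367. At day 3, 6 of 7 were called higher, against 25.5% of all genes, and 7 of 8 without cKO replicate 4, against 28.8%. Of those 7 tested with all libraries, 4 (Meioc, Rbm46, Sohlh2 and Stra8) were tested only through cKO cultures. In cartilage 2 of 5 were called higher, against 3.15% of all genes: Sohlh2 and Dazl, both tested only through cKO libraries. They were at 0 in all control libraries and at least 7.03-fold and 26.8-fold higher in cKO.

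Genes of the PRC1.6 and E2F6 repressors had small differences. At day 0, 4 of 15 were called higher and 6 lower, near the 33.0% and 31.6% over all genes, with log2 fold changes from -0.43 (Ring1) to 0.26 (L3mbtl2). In the fit over all 14 cultures 0 were called higher and 1 lower, against 21.1% and 20.9%. At day 3, 5 of 15 were called, each lower, against 22.6% of all genes. Without cKO replicate 4, 1 was higher and 5 lower, against 28.8% and 26.4%. In cartilage 1 of 15 was called, Mga, higher at 0.59 ± 0.143, against 3.15% of all genes called higher.

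Across the 14 cultures, the median profile of the 9 members that passed the filter was 3.78 higher in cKO than in control at day 0 and 3.21 higher at day 3, on a centred log2 CPM scale. Of these, Sycp1, Sycp2, Syce1, Hormad1 and Rec8 reached the filter's level of either day in cKO cultures alone. A higher cKO profile was therefore partly set by the filter. Sycp1 and Hormad1 had no control count, so the size of their difference depends on the prior count of 1. Stag3 (root-mean-square distance 0.394) and Sycp1 (0.54) lay nearest to that profile among the members, and Dmc1 (1.82) and Syce1 (1.68) farthest. The non-member genes nearest to it were Zfp773 (0.44), Gm5590 (0.502), E330017A01Rik (0.512), 1 gene without a symbol in the name table used (0.524) and Gal3st2c (0.527). This is a likeness over 14 samples that share genotype groups and libraries, and it is given as a description.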

How the data were processed

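RNA-seq was measured in 14 chondrocyte cultures and 8 cartilage samples. Per the labels' protocols, the culture RNA went into a directional library kit, and the cartilage RNA into a 3′ barcoded method that carries molecular identifiers. The culture tables deposited by the authors hold estimated counts per gene, rounded here to whole numbers, and the main cartilage table deposited by the authors holds whole-number counts. A second deposited cartilage table of estimated counts served as an alternative. Per the submitters' processing notes the build was GRCm38, and for cartilage UMI-tools 1.1.1, Trim Galore 0.6.7, HISAT2 2.2.1, featureCounts 2.0.1 and DESeq2 1.34.0 were used. The aligner and counter of the cultures are not given in the sources used here.

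Gene IDs were matched to symbols (32574 of 34866) with the name table, and lengths and overlaps were taken from GENCODE M21. Each comparison was fitted over all genes with edgeR 4.0.16 (quasi-likelihood test, TMM scaling, filterByExpr with a minimum count of 10 and a minimum total of 15), with sex as a covariate in cartilage, and p-values were adjusted by Benjamini-Hochberg over all genes tested, with a threshold of 0.05. The scripts were tested on simulated data. Exact 95% counting intervals of ratios of totals and the floor of 3 counts per library cover counting error only. A fold against controls at 0 sets the mean cKO CPM against the highest control floor. Alternatives were other size factors, DESeq2 1.42.0, no filter, each library left out, a replicate block, 1 fit over all 14 cultures, the second cartilage table and no sex term. The unfiltered fit of the second cartilage table, the list counts without day 3 cKO replicate 4 or over all 14 cultures, and the time changes, ratios and overlap without that replicate were chosen after seeing the data.

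No pair of replicate libraries agreed within sampling noise (the lowest chi-square was 3.529 per degree of freedom). The p-values measure the spread between these samples, which may be partly technical where the source animals are not stated. The members, the gene lists and the marker lists were chosen with earlier results of these data known. All 10 members were named, and from the other lists up to 6 genes per comparison with the largest called changes whose groups did not overlap, beside examples chosen after their values were seen (Mei4, Msh5, Cdca5, Meioc, Stra8, Ring1, L3mbtl2). Promoter sequences came from RefSeq. The values of 1 listed gene are not reported here.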

Additional observations from a re-analysis of the deposited data

Results flagged for a closer look

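In groups of 4 libraries, a sample was singled out where its gap to the nearest other, divided by the group's range, exceeded Dixon's 95% critical value. Of 40 such groups of members, 6 met this. Dixon's value assumes continuous, normally spread values, and many of these groups hold only a few counts. Groups without a count in any library could not meet it, and a group counted in only 1 library always did. How many would meet it by chance is therefore not known, and the rule is used as a description only. At day 3, Sycp3 stood at 1.05 CPM in cKO replicate 1, above the other 3, and Stag3 at 3.92 CPM in cKO replicate 4, below the other 3. In cartilage, Sycp3 (0.875 CPM) and Syce1 (1.75 CPM) were lowest in cKO replicate 2, a difference of 1 count from the other libraries in each gene. Smc1b was highest in cKO replicate 3 (12.5 CPM) and was counted in control replicate 4 alone (1.03 CPM).

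The genotype difference itself differed between untreated and BMP2-treated cultures in 2 members by the interaction test: Stag3 (-1.22 on the log2 scale, adjusted p = 0.0466) and Syce2 (-1.13, adjusted p = 0.0117). The Stag3 call was lost in 10 of the 14 fits that left out 1 culture (adjusted p up to 0.121) and with no filter on low counts (adjusted p = 0.0634).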

How the results depend on the processing

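Of 388 alternative values of single members, 367 kept their direction and side of the threshold. These include the interactions of Sycp1 and Hormad1, which could not be estimated and so could not cross the threshold. Where a member was not tested in the chosen fit, as in cartilage, its values were set against the fit with no filter on low counts. At day 0, 9 members were called in the chosen fit, under every alternative and in every fit without 1 library, except the fit over all 14 cultures, in which Sycp3 was not tested and 8 were called. At day 3, 4 members were called in the chosen fit, 4 to 7 without 1 library, with the highest number without cKO replicate 4, and 7 in the fit over all 14 cultures. In cartilage, 0 members were tested in the chosen fit, 5 were called with no filter on low counts, 3 with DESeq2 and 4 on the estimated counts with no filter. The interaction gave 2 calls, 1 with no filter and 1 to 2 without 1 library, and the interaction of Sycp2, never called, ran from -0.69 to 1.84 over those fits. Replicate numbers showed no clear pairing of the samples. Deviations of same-numbered samples correlated at -0.147 to 0.257 within the data sets, and those of different-numbered samples at -0.323 to 0.206. With 3 or 4 libraries per group this cannot exclude a pairing. With a replicate block, 9 members were called at day 0, 4 at day 3 and 2 in the interaction. In cartilage the filter uses genotype only, so a block could not change which members passed it, and 0 were tested. Other meiotic genes called lower at day 0 numbered 3 instead of 6 in the fit over all 14 cultures, and somatic counterparts called higher numbered 1 instead of 6. In cartilage a floor of 3 counts equals 1.54 to 2.75 CPM.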
